A study of Mus musculus with 22 samples.

Results

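In NIH/3T3 mouse fibroblasts, 41 of the 11208 genes measured were lower at every time after serum was given back to resting cells. The same 41 changed by less than 2-fold after 12 h of E2F1 induction, 7 of them rising by at least 0.5 in log2. The genes were picked by 2 sets of values, both on a log2 scale of normalized count + 1. In the line with the empty vector, the mean at 2, 6 and 12 h of serum each had to lie at or below -1.5 relative to 0 h. In the line with the E2F1 construct, the mean at 12 h of doxycycline had to lie between -0.5 and 0.99 relative to its own 0 h. Symbols beginning with Col, Adamts or Lam were left out by name, which removed 1 gene that met the values, Adamts5. The serum and 12 h E2F1 values of these 41 genes are therefore descriptions with no test. Tests were run only between libraries that the choice did not use.

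Fibroblasts deprived of serum leave the cell cycle and rest, and they switch on or keep on genes that growing cells hold at a low level. Serum supplies growth factors that set off kinase cascades and early transcription factors, and the E2F factors act later, on genes for DNA synthesis. E2F1 is normally held by the retinoblastoma protein, so inducing E2F1 alone activates the later step without the growth factor signals.

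Polyadenylated RNA was sequenced from 2 NIH/3T3 lines, each with a stably integrated construct that doxycycline switches on: one for E2F1 (the E2F1 line) and one empty (the EV line). All cells were starved for 48 h in 0.25% serum. The 0 h groups then received nothing, the doxycycline groups of each line 500 ng/ml for 2, 6 or 12 h, and the serum groups, all of the EV line, 10% serum for 2, 6 or 12 h. The 22 libraries form 11 groups of 2. The labels do not say whether a line is a clone or whether replicates came from separate cultures, so p-values measure only the spread between these libraries, which may be technical. The serum groups and the EV doxycycline groups share the EV 0 h libraries.

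The normalized counts of a library summed to between 34014608 and 46057140, and to at most 37401882 outside the serum groups. E2f1 itself read 1637 to 1703 in the E2F1 line at 0 h and 1535 to 1755 at 2 h. It read 3602 to 3806 there at 6 h and 2683 to 2845 at 12 h, against 1307 to 1655 in the EV line without serum. With serum the EV line read 740 to 802 at 2 h, 956 to 1186 at 6 h and 4247 to 4615 at 12 h. The 12 h serum libraries were thus above every library of the E2F1 line. Whether transcripts of the construct are counted in these values is not given in the sources used here. All 9 fibroblast markers were in the table, and none of the 4 epithelial and 3 endothelial markers. Of the other lists it held 1 of 8 adipocyte, 1 of 5 smooth muscle, 2 of 6 cartilage or bone and 1 of 4 macrophage markers. The libraries at 2 h stand apart in Ddx3y, a Y-linked gene that separates the lines: it read 521 to 580 in the E2F1 line at 0 h and 4 to 9 in the EV line at 0 h. At 2 h it read 71 to 103 in EV with doxycycline and 132 to 170 in EV with serum, while the E2F1 line read 316 to 329. At 6 h the EV libraries read 18 to 31 with doxycycline and 35 to 48 with serum, and the E2F1 line 415 to 435. At 12 h the EV libraries read 4 to 9 with doxycycline and 19 to 29 with serum, and the E2F1 line 446 to 546. The part of this in the values of the members was not tested. That holds for every value below that uses a 2 h, 6 h or serum library, the comparison of the lines at 6 h included.

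Of the 176 genes that met the serum bounds and were not left out by name, 131 lay below -0.5 after 12 h of E2F1, 4 lay above 0.99, and the 41 lay between, 23.3% of the 176. The members nearest the serum bound were Mid1 at -1.51, Gm47469 at -1.52 and Gm16576 at -1.52 for the weakest of their serum differences, and 4833427G06Rik narrowly, Abhd18 at -1.49 and Slc25a23 at -1.49 missed it. At the lower E2F1 bound Pld1 (-0.47), Lrrn3 (-0.43) and Akr1c14 (-0.43) were inside, and Pced1b (-0.51), Cdo1 (-0.51) and Tgfbr2 (-0.52) outside. At the upper bound Cbx7 (0.97), Nrep (0.97) and Rab3d (0.95) were inside, and Mafa (1.05), Lrrc56 (1.12) and Ypel1 (1.39) outside. Many genes therefore sit close to a bound. Choosing with the serum bound at 6 and 12 h only, without the 2 h libraries, gave 76 genes that include all 41. All 41 passed the filter on low values.

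**Figure D1:**
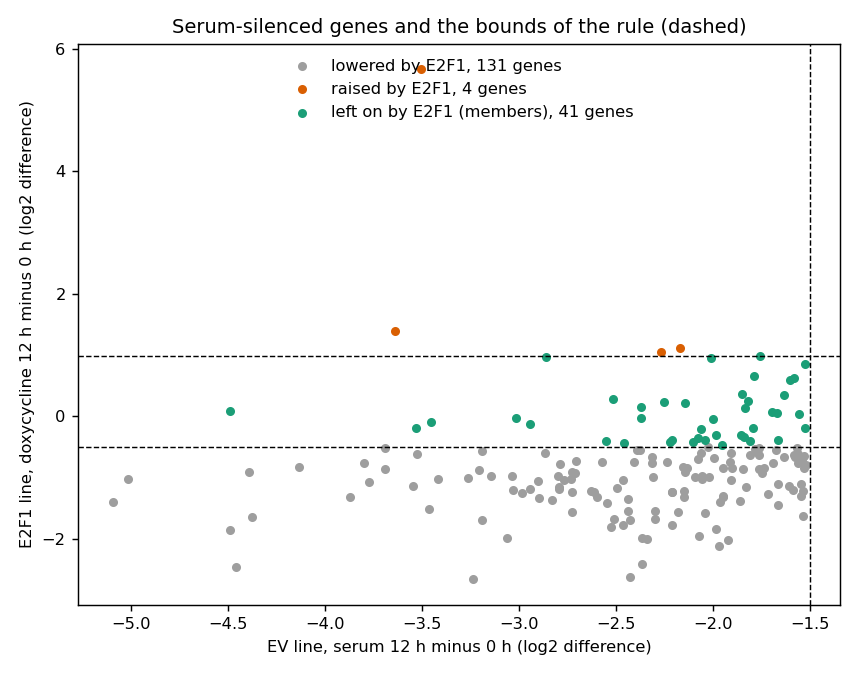
Each point is 1 of the 176 serum-silenced genes, with the log2 difference between 12 h of serum and 0 h in the EV line on the x axis and that between 12 h of doxycycline and 0 h in the E2F1 line on the y axis. Dashed lines are the bounds of the choice, and the 41 members (green) form the band between the 131 genes below it and the 4 above it.

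The members are spread over 18 chromosomes. By GENCODE M21 on GRCm38, 37 of the 41 are protein coding, and 3 neighbouring pairs lie within 1 Mb: Gm16576 and Cbx7 on chromosome 15 (158413 bases apart), Trp53inp1 and Pdp1 on chromosome 4 (783805 bases) and Pdp1 and Tmem67 (72903 bases). At EV 0 h their median level per kb of exon was 154 normalized counts, against 277 over all genes, and it ran from 14.8 for Pdzd2 to 821 for Tns2. For 23 of the 41, another annotated gene overlaps the span of the gene, introns included. The use of strand in counting is not given in the sources used here, and overlap of exons was not examined. Whether reads of those pairs can be told apart is therefore not known. Among the genes below this holds for Rnf144a, Cdk19, Tcf7l1, Cdon, Rgl1, Kank3, Mid1, Lrrn3, Akr1c14, Trim12c, Cercam, N4bp2l1, Tmem67, Cbx7, Sh2d3c, Pdzd2, Dnajc28 and Zfp608. Akr1c14 and Trim12c belong to families of close copies, whose reads the counting could split.

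In serum the members lay at a median log2 difference from 0 h of -2.22 at 2 h and -2.30 at 6 h, with 20 members at least 4-fold lower at 12 h. At 2 h 24 and at 6 h 25 were at least 4-fold lower. Over all genes the shares at 2, 6 and 12 h were 3.59%, 2.50% and 1.88%. These differences follow from the choice. Their time course was left free only below the bound of -1.5 at each time. The lowest serum group was 2 h for 22 members, 6 h for 14 and 12 h for 5. No share over all genes was taken for these counts. From 2 to 12 h of serum the members' median difference was 0.25, with a range of -1.48 for Kank3 to 3.31 for Mamstr. The median was -0.004 over all genes and 0.26 in the 131 serum-silenced genes that E2F1 lowered. In bulk RNA, fewer cells that express a gene and less of its RNA per cell cannot be told apart.

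**Figure D2:**
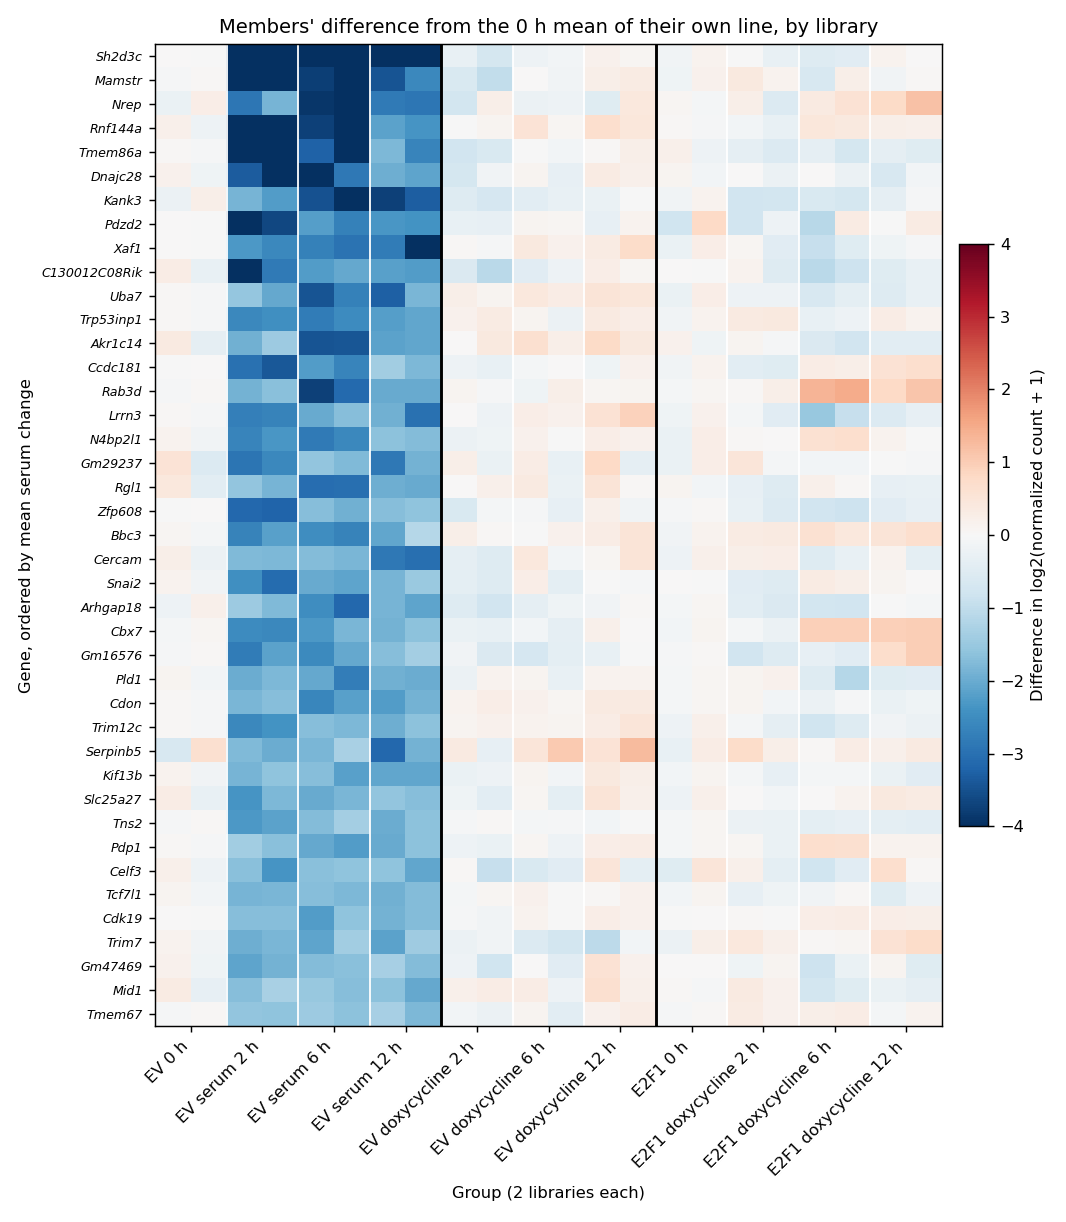
Rows are the 41 members ordered by their mean serum difference and columns are the 22 libraries in groups of 2. Colour gives the log2 difference from the 0 h mean of the same line, cut at 4 in either direction, and the serum block is blue throughout while both doxycycline blocks are mostly pale, with Rab3d and Cbx7 light red at 6 and 12 h in the E2F1 line.

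Rnf144a, an E3 ubiquitin ligase of the RING-between-RING class, lies at chr12:26300964-26415254 on the minus strand. It read 5625 and 4185 normalized counts at EV 0 h, 227 and 272 at 2 h of serum, 361 and 232 at 6 h, and 1104 and 940 at 12 h. In the E2F1 line it read 3481 and 3270 at 0 h, 3099 and 2767 at 2 h, 4630 and 4451 at 6 h, and 3987 and 3906 at 12 h. All 6 serum libraries were below every other library, and the E2F1 line at 12 h was above its own 0 h. In the EV line with doxycycline the gene read 4777 and 5226 at 2 h, 7125 and 5159 at 6 h, and 7752 and 6619 at 12 h, above the E2F1 line at the same time. The authors' deposited table gave it a log2 fold change of -4.27 at 2 h of serum, a comparison that the choice also used.

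Mamstr, a coactivator of MEF2 transcription factors, had the largest serum difference at 2 h. It read 407 and 441 at EV 0 h, 3 and 6 at 2 h of serum, 30 and 22 at 6 h, and 38 and 70 at 12 h. In the E2F1 line it read 331 and 423 at 0 h, 491 and 412 at 2 h, 241 and 443 at 6 h, and 341 and 390 at 12 h. Every serum library was far below every library of the E2F1 line, whose 0 h and 12 h libraries overlapped. Sh2d3c, an adaptor that binds Cas-family proteins in integrin and receptor signalling, kept the least after 12 h: 270 and 264 at EV 0 h against 10 and 12 at 12 h of serum, 4.12% of the 0 h mean. Its E2F1 libraries read 203 and 243 at 0 h and 247 and 225 at 12 h, and overlapped.

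Members whose products act in signalling, adhesion or the cytoskeleton were grouped here by their known roles, for order only. Tns2, a tensin at focal adhesions, read 4332 and 4620 at EV 0 h, 912 and 1013 at 2 h of serum and 1136 and 1434 at 12 h. Cdon, a Hedgehog coreceptor, read 3317 and 3067 at EV 0 h, 894 and 970 at 2 h, 520 and 704 at 6 h and 673 and 868 at 12 h. Rgl1, an exchange factor for Ral GTPases, read 3229 and 1805 at EV 0 h and 291 and 295 at 6 h of serum. All 3 had no overlap between serum and 0 h, which largely follows from the choice. Arhgap18 had its low point at 6 h of serum with 395 and 245, from 1921 and 2500 at EV 0 h. Kank3, an ankyrin-repeat protein of the KANK family, read 1217 and 1695 at EV 0 h and 106 and 144 at 12 h of serum, 8.59% of the 0 h mean.

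Of the members that act in transcription, Snai2 (Slug), a repressor of epithelial genes, read 1197 and 966 at EV 0 h, 194 and 126 at 2 h of serum and 298 and 384 at 12 h. Zfp608, a zinc finger protein, read 866 and 901, then 100 and 95 at 2 h and 268 and 289 at 12 h. Both were lowest at 2 h and higher in both 12 h libraries than in either 2 h library. Cdk19, a kinase of the Mediator complex, read 4552 and 4526 at EV 0 h, and between 971 and 1501 in the 6 serum libraries. Tcf7l1, a mostly repressive factor of the Wnt pathway, read 2636 and 2275 at EV 0 h and 641 to 752 in serum. For these last genes the serum times differed little beside the distance to 0 h.

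Among stress and defence genes, Trp53inp1, a p53-induced protein of autophagy and cell death, read 1712 and 1618 at EV 0 h and 240 to 391 in serum. Xaf1, an interferon-inducible partner of XIAP, read 259 and 255 at EV 0 h and 36 and 14 at 12 h of serum, its lowest group. Of the genes outside the naming rule, picked after their values were seen, Bbc3 encodes the BH3-only protein PUMA, which E2F1 is known to activate. It read 918 and 807 at EV 0 h and 135 to 392 in serum. In the E2F1 line it read 722 and 866 at 0 h, 989 and 1018 at 2 h, 1194 and 1064 at 6 h and 1136 and 1252 at 12 h, so every doxycycline library was above both 0 h libraries. With doxycycline alone the EV line read 1057 and 1224 at 12 h, also above its 0 h, and the lines differed there by 0.07 in log2. At 6 h the difference between the lines was 0.31 (SE 0.22, adjusted p = 0.2277, limma), which did not pass.

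Nrep (P311), a small protein of fibroblast migration, was the member of lowest resting count, with 99 and 142 at EV 0 h and 7 and 0 at 6 h of serum. Such counts set a limit on its fold. Tmem86a, a lysoplasmalogenase, read 1148 and 1091 at EV 0 h, 56 and 56 at 2 h of serum and 321 and 179 at 12 h. Dnajc28, a J-domain protein, read 310 and 239 at EV 0 h and 26 and 4 at 2 h of serum. Slc25a27, a mitochondrial carrier, read 744 and 497 at EV 0 h and 117 and 175 at 2 h. The serum libraries of these genes did not overlap their 0 h libraries, which again largely follows from the choice.

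The authors' deposited tables, which list only genes of large change, held 24 members at 2 h of serum, 25 at 6 h and 19 at 12 h, all as lower. These 3 tables listed 1268, 795 and 726 genes. They compare serum groups that the choice used, so the direction follows from the choice. At least 1 serum table listed 35 members, and 11 were in all 3. No member was in their E2F1 or EV doxycycline tables. Markers of other cell types also stood apart in serum. Acta2, the only one of 5 smooth muscle markers in the table, read 6729 to 8028 at EV 0 h and 49641 to 66721 in serum, and Csf1r, of the macrophage list, read 154 to 229 against 365 to 735. Lpl was lower at 6 h (100 to 128 against 380 to 494). Sox9 was higher at 2 h (14813 to 16561 against 6689 to 7152) and lower at 12 h (4385 to 4648). Fibroblast markers went both ways at 12 h. Col3a1 read 17487 to 24458 against 186691 to 193386, and Pdgfra 8986 to 11978 against 57591 to 71387. Thy1 was higher, at 16368 to 19271 against 6189 to 7134. The part of all these markers in the serum values was not tested.

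RefSeq promoters (GRCm38.p6, from 250 bases before to 50 after a start listed for the gene) were available for 28 of the 41 members. Those of 5 members are shown, 3 from the 4 highest resting counts (Rnf144a, Tns2, Cdon) and 2 from the largest differences between the lines at 6 h (Rab3d higher, Pdzd2 lower). Cdk19, Pdp1 and Lrrn3 belong to the same choice and are named only. The windows of Cdon and Tns2 lie inside the genes, whose GENCODE starts are chr9:35421128 and chr15:102100413, and not at those starts. Capitals mark any match to the motifs searched, on either strand.
Rnf144a, chr12:26415213-26415512, minus strand: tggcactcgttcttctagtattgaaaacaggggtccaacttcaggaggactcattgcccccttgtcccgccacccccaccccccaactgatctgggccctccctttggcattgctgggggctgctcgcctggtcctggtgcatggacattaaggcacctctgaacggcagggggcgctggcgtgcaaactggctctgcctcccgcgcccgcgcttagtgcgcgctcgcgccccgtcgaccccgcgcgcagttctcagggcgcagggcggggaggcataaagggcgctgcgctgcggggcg
Tns2, chr15:102102684-102102983, plus strand: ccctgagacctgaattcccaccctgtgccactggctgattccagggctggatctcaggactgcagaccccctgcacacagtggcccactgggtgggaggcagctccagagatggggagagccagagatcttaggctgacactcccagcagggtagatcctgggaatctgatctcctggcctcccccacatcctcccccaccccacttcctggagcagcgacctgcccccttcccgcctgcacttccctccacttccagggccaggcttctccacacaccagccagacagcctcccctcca
Cdon, chr9:35451826-35452125, plus strand: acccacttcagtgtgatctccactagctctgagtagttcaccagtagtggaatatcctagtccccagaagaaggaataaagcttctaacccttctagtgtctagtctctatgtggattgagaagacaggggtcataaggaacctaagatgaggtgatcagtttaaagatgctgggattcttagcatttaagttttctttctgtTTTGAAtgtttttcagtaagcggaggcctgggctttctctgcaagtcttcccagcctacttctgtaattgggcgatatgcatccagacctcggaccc
Rab3d, chr9:21918134-21918433, minus strand: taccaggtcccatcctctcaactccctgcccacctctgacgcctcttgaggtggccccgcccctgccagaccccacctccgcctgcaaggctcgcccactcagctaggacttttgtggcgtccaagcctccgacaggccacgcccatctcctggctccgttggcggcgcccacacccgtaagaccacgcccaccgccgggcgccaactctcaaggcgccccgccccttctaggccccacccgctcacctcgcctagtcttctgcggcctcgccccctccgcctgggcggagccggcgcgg
Pdzd2, chr15:12739843-12740142, minus strand: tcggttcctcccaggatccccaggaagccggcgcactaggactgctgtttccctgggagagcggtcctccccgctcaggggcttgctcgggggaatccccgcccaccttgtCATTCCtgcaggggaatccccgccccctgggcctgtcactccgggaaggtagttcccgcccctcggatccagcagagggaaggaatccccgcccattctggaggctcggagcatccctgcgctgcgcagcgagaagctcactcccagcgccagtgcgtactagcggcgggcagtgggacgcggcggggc

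The capitals in the Cdon promoter are the letters TTTGAA, and those in the Pdzd2 promoter are GGAATG read on the other strand. The other 3 hold none of the motifs searched, which were TTTCCCGC and TTTGGCGC (E2F), TTTGAA (the cell cycle homology element), GTAAACA (forkhead), TGANTCA (AP-1), CACGTG (E-box), GGAATG (TEAD), TATAAA, and the glucocorticoid receptor motif, given by name. Both strands were read, and none of the motifs contains another. Over the 28 members, the E2F letters were in 0 promoters, against 3.79% of the 8609 genes with a promoter, which says only that these letters are not in these windows. A gene was counted if any promoter listed for it held the letters. TTTGAA was in 7 members (25.0%, all genes 14.1%), TGANTCA in 5 (17.9%, all genes 5.65%) and GTAAACA in 3 (10.7%, all genes 2.97%). In the first listed promoter alone these were 6 (all genes 11.6%), 4 (all genes 4.39%) and 2 (all genes 2.35%). Among the 97 serum-silenced genes that E2F1 lowered with a promoter, the shares over any promoter were 12.4%, 10.3% and 5.15%. GGAATG was in 4 (14.3%, all genes 13.9%), CACGTG in 2 (7.14%, all genes 12.1%), TATAAA in 1 (3.57%, all genes 8.12%) and the glucocorticoid receptor motif in 0 (all genes 2.28%). A match is a description and not a binding site. The members' first listed promoters had a median GC content of 60.5% and a median of 15 CpG pairs, against 61.7% and 22 over all genes. Those of the serum-silenced genes that E2F1 lowered had 59.7% and 14.

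In the E2F1 line the members' median log2 difference from 0 h was -0.15 at 2 h, -0.19 at 6 h and -0.04 at 12 h, and only the last was bounded by the choice. At 6 h 26 members were below their 0 h mean (63.4%, all genes 52.5%). From 6 to 12 h, 19 members had both later libraries above both earlier ones (31.3% of all genes), 11 had both below (37.9%) and 11 overlapped, and the lower bound on the 12 h value bears on these counts. At 12 h 12 members had both libraries above both of 0 h (40.2% of all genes), 14 had both below (41.1%) and 15 overlapped. Relative to 12 h of serum in the EV line, all 41 were higher in both E2F1 libraries (42.5% of all genes) and 0 lower (38.9%), with a median difference of 1.87. That comparison uses the libraries of the choice.

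Leaving the genes on did not mean equal levels in the lines. Relative to the EV line at 12 h of doxycycline, the E2F1 line had both libraries below in 25 members (40.5% of all genes), both above in 9 (43.3%) and an overlap in 7, with a median of -0.30. The lines already differed at 0 h, where 16 members were below in the E2F1 line (25.7% of all genes), 11 above (30.2%) and 14 overlapped. These values involve libraries of the choice and have no test.

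**Figure D3:**
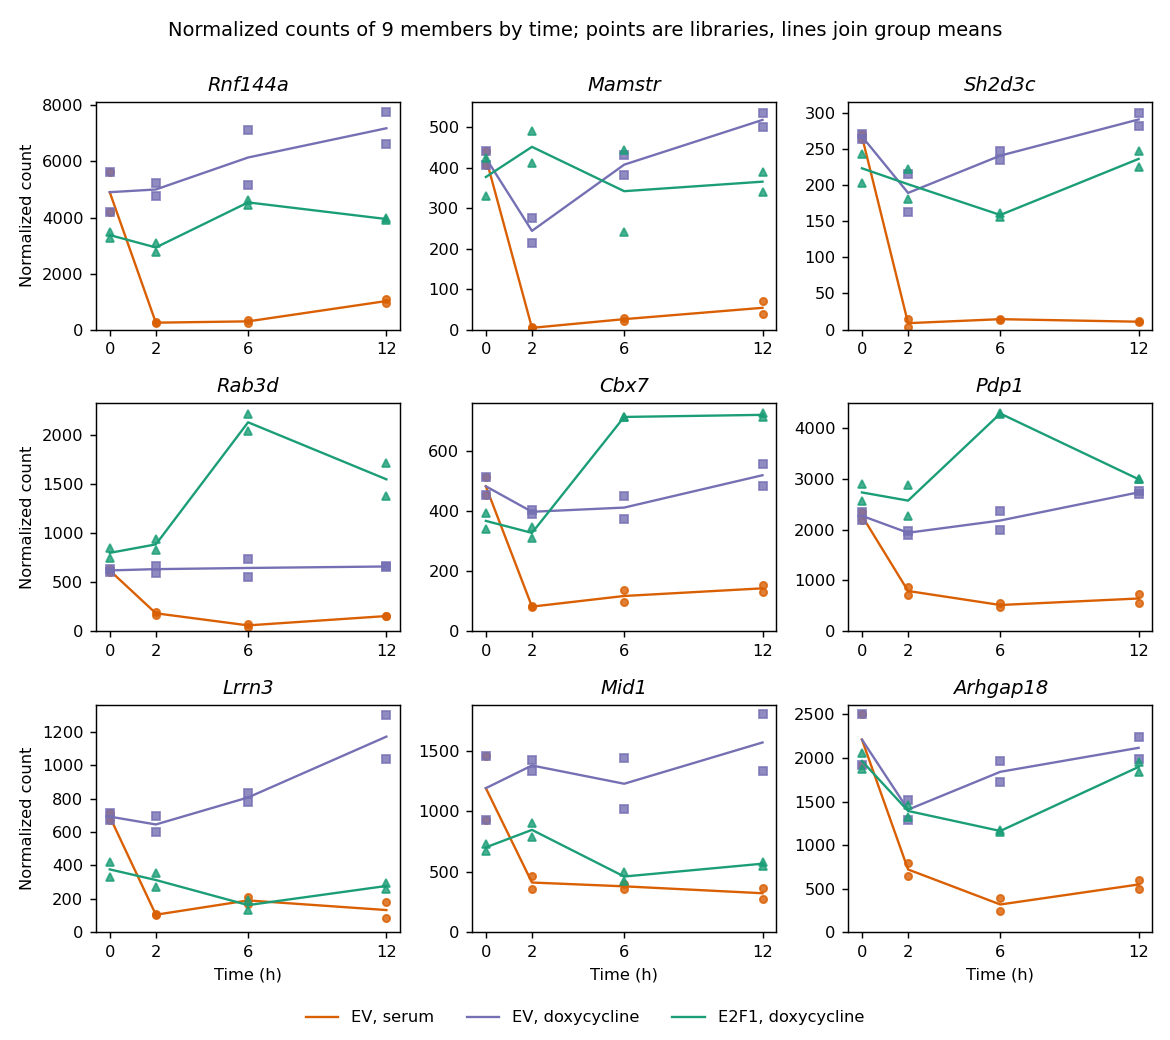
Normalized counts (y axis, linear from 0) of 9 members against hours of treatment, with points for libraries and lines through the means of 2. Serum libraries (orange) lie at the bottom after 0 h for Rnf144a, Mamstr and Sh2d3c, Rab3d, Cbx7 and Pdp1 peak or stay high in the E2F1 line (green) at 6 h, and Lrrn3 and Mid1 lie close to the serum level there at 6 h.

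The comparison of the lines at 6 h of doxycycline used no library of the choice and asks how E2F1 induction stood against doxycycline alone. Of the 41 members, 17 differed at an adjusted p of at most 0.05 (limma), 5 higher and 12 lower in the E2F1 line. Over all genes 60.2% differed, 33.0% higher and 27.2% lower, so the members' share, 41.5%, lay below the background. The members were chosen for a bounded change at 12 h of the same induction, which bears on this share. Their median difference was -0.25, against 0.01 over all genes. In 11 members both E2F1 libraries were above both EV libraries (42.1% of all genes), in 20 below (39.9%), and 10 overlapped. Acta2, the smooth muscle marker, read 11306 to 12501 in the E2F1 line and 6702 to 9315 in the EV line. Lpl of the adipocyte list read 928 to 984 against 433 to 626. Sox9 (5531 to 6042 against 7339 to 7674) and Runx2 (2592 to 2894 against 3331 to 3617) of the cartilage or bone list and Csf1r of the macrophage list (33 to 99 against 150 to 153) were lower in the E2F1 line. Of the fibroblast list, Pdgfra (26870 to 33178 against 55854 to 74007) and Col3a1 (93067 to 104123 against 160416 to 203512) were lower. Pdgfrb (3828 to 3910 against 6254 to 6693) and Vim (93411 to 98147 against 148567 to 156400) were lower as well. So were Col1a1, Col1a2 and Fn1, without overlap, while Thy1 and S100a4 overlapped. The part of all these markers in the members' differences was not tested. Of the 131 serum-silenced genes that E2F1 had lowered at 12 h, 101 differed, 99 of them lower, with a median of -0.99. They were set apart by that lower 12 h value, which bears on these counts. Leaving out all 2 h libraries gave 18 members, 5 higher and 13 lower.

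Rab3d, a GTPase of secretory vesicles (chr9:21907491-21918192, minus strand), had the largest difference among the members higher in the E2F1 line. It read 2039 and 2211 in the E2F1 line at 6 h and 552 and 732 in the EV line, and the pairs did not overlap. The difference was 3.34-fold, or 1.74 in log2 (SE 0.18, adjusted p = 1.915e-07, limma). At 0 h the lines read 748 and 843 against 601 and 633, a difference of 0.36. In serum it read 45 and 70 at 6 h, so the same time gave the lowest serum values and the highest E2F1 values of this gene.

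Pdp1, the phosphatase that activates pyruvate dehydrogenase, read 4304 and 4278 in the E2F1 line against 2376 and 1985 in the EV line, 1.98-fold higher (log2 0.98, SE 0.14, adjusted p = 6.471e-06, limma). Cbx7, a chromobox subunit of Polycomb repressive complex 1, read 715 and 714 against 451 and 373, 1.74-fold higher (log2 0.80, SE 0.17, adjusted p = 0.0005946, limma). The E2F1 libraries were above both EV libraries for each gene. At 0 h the line difference was 0.26 for Pdp1 and -0.39 for Cbx7, so Cbx7 was lower in the E2F1 line at rest and higher at 6 h. Rgl1 (log2 0.70, SE 0.22, adjusted p = 0.009722) and Snai2 (log2 0.55, SE 0.20, adjusted p = 0.02064) were higher by limma as well. Rgl1 was also 0.63 higher at 0 h. Without EV 6 h replicate 2 the adjusted p of Rgl1 was 0.182 and that of Snai2 0.370.

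Lrrn3, a membrane protein with leucine-rich repeats (chr12:41451668-41486431, minus strand), had the largest difference among those lower. It read 131 and 195 in the E2F1 line at 6 h and 832 and 781 in the EV line, 5.02-fold lower (log2 -2.33, SE 0.26, adjusted p = 5.431e-07, limma). At 0 h the lines read 331 and 422 against 715 and 669, and at 6 h of serum the EV line read 172 and 210. At 6 h, then, the E2F1 libraries of this gene overlapped the serum libraries, and at 12 h it read 257 and 298. Pdzd2, a protein with several PDZ domains, read 36 and 98 against 296 and 287 (log2 -2.27, SE 0.48, adjusted p = 0.0005292, limma). It already read 45 and 137 against 276 and 269 at 0 h, a difference of -1.78.

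Mid1, a microtubule-bound E3 ligase, read 426 and 497 against 1438 and 1018 (log2 -1.39, SE 0.21, adjusted p = 1.816e-05, limma). Tmem86a read 484 and 378 against 1102 and 1027 (log2 -1.31, SE 0.26, adjusted p = 0.0002584, limma). Both were lower in the E2F1 line at 0 h too, by -0.73 and -0.86. C130012C08Rik, an unverified transcript, was lower at 57 and 67 against 165 and 196 (log2 -1.53, adjusted p = 0.003459, limma), with -0.89 at 0 h. Kank3 read 570 and 535 against 1077 and 1177 (log2 -1.03, adjusted p = 0.001114, limma), with -0.71 at 0 h. None of these pairs overlapped.

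Pld1, phospholipase D1, read 289 and 187 against 543 and 410 (log2 -1.02, adjusted p = 0.0009359, limma). Akr1c14, a hydroxysteroid dehydrogenase, read 339 and 296 against 719 and 546 (log2 -0.98, adjusted p = 0.001488, limma), and was 0.13 higher in the E2F1 line at 0 h. Arhgap18 read 1172 and 1154 against 1719 and 1964 (log2 -0.66, adjusted p = 0.003679, limma), and at 12 h it read 1955 and 1840, near its 0 h values of 1876 and 2055. Tns2 had the smallest difference among those called, with 3266 and 3392 against 4279 and 4372 (log2 -0.38, adjusted p = 0.007099, limma). Of the genes outside the naming rule, Trim12c, a tripartite-motif protein, was lower by -0.90 (adjusted p = 4.338e-05, limma) and Cercam, related to collagen galactosyltransferases, by -0.81 (adjusted p = 0.0220, limma). Cercam had an adjusted p of 0.221 without EV 6 h replicate 1 and 0.119 without E2F1 6 h replicate 1.

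Of the 12 members lower at 6 h, 11 had a lower mean in the E2F1 line at 0 h as well, and in all 12 the difference at 6 h was the larger. Of the 5 higher, 4 had a higher mean at 0 h and all 5 had a larger difference at 6 h. The 0 h means are given without a test. Calling genes by their 6 h difference favours a larger difference there than at 0 h, and no share over all genes was taken. Cdk19 (4797 and 4837 against 5050 and 4523) and Trp53inp1 (1532 and 1658 against 1782 and 1423) had overlapping libraries and log2 differences of 0.01 (SE 0.13) and 0.00 (SE 0.13). Cdon, at 0.14 (SE 0.13), and Tcf7l1, at -0.07 (SE 0.12), did not pass the test either, and Mamstr, at -0.31, had an SE of 0.32.

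**Figure D4:**
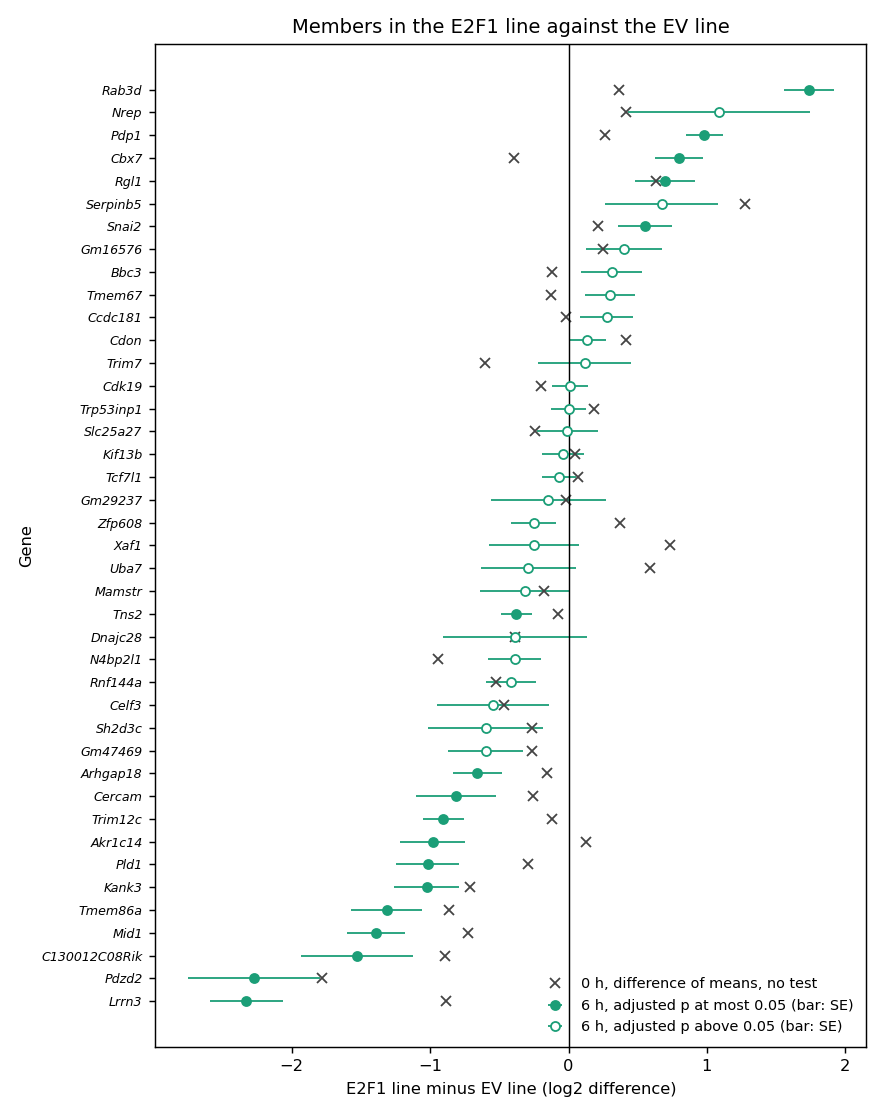
Log2 difference between the E2F1 and EV lines for the 41 members, at 6 h of doxycycline (circles with SE bars, filled where the adjusted p is at most 0.05) and at 0 h (crosses, no test). Rab3d is highest at 1.74 and Lrrn3 lowest at -2.33, and for most filled circles the cross lies on the same side of 0.

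With doxycycline alone, between 6 and 12 h in the EV line, no member passed (limma), where 0.0446% of all genes did, and 5 had an unadjusted p under 0.05: Trp53inp1, Pdp1, Slc25a27, Tmem67 and Gm47469, the lowest adjusted p being 0.236. Their median was 0.23, against -0.01 over all genes. In 23 members both libraries at 12 h were above both at 6 h (19.4% of all genes), and in 0 below (23.3%). Trp53inp1 read 1782 and 1423 at 6 h and 2142 and 1990 at 12 h. Slc25a27 read 640 and 467, then 865 and 702. The serum-silenced genes that E2F1 lowered had a similar median of 0.25 over the same interval. From 2 to 6 h in the EV line no member passed limma either (6.46% of all genes, 2.65% higher and 3.81% lower), with 4 at an unadjusted p under 0.05 and a lowest adjusted p of 0.153. In 17 members both 6 h libraries were above both 2 h libraries (25.2% of all genes) and in 2 below (29.6%).

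In the E2F1 line 14 members differed between 2 and 6 h of doxycycline, 8 higher and 6 lower (limma), against 47.6% of all genes (27.4% higher, 20.2% lower). This rests on 2 h libraries, and the bound on the 12 h value of this line bears on the members' share. Rab3d rose from 828 and 936 to 2039 and 2211 (log2 1.27, SE 0.18, adjusted p = 1.493e-05, limma), and Cbx7 from 346 and 309 to 715 and 714 (log2 1.12, SE 0.17, adjusted p = 2.982e-05, limma). Pdp1, Snai2, Rnf144a and Rgl1 rose by 0.75, 0.75, 0.63 and 0.54, as did Ccdc181 (0.71) and N4bp2l1 (0.59), which are outside the naming rule. Pld1 fell by 0.97, Lrrn3 by 0.95, Mid1 by 0.88, Akr1c14 by 0.70, Trp53inp1 by 0.61 and Trim12c by 0.44. Trp53inp1 read 2413 and 2468 at 2 h, 1532 and 1658 at 6 h and 2307 and 2074 at 12 h, so its 6 h libraries were below both other times. In the EV line it read 1860 and 2096 at 2 h, again above 6 h, and the difference between the lines in this change was -0.30 (adjusted p = 0.2024, limma), which did not pass. Without E2F1 2 h replicate 1 the count was 9.

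Between the lines at 2 h, 7 members differed (limma), where 7.49% of all genes did, 4.25% higher and 3.24% lower. Serpinb5 was higher, and Lrrn3, Mid1, Kank3, Pdzd2, Rnf144a and N4bp2l1 were lower. All 7 differed on the same side at 0 h, given without a test. The 0 h differences were 1.27 for Serpinb5, -0.89 for Lrrn3, -0.73 for Mid1 and -0.71 for Kank3. For Pdzd2, Rnf144a and N4bp2l1 they were -1.78, -0.52 and -0.94. Leaving out EV 2 h replicate 1 gave a count of 1, and leaving out any other of the 4 libraries gave 0. Serpinb5, which encodes maspin and lies outside the naming rule, read 1217 and 868 in the E2F1 line at 2 h against 392 and 242 (log2 1.74, SE 0.41, adjusted p = 0.01599, limma). At 0 h it read 603 and 905 against 195 and 476.

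Few members belong to the pathway lists used for this work. Trp53inp1 was the only member among the 31 measured genes of the FOXO and insulin-linked list, which marks resting, nutrient-poor cells. That list held 7 serum-silenced genes, and the other 6 (Pik3ip1, Ccng2, Sesn3, Ypel2, Ypel3 and Hbp1) lay below -0.5 after 12 h of E2F1, an untested value of the choice that 74.4% of the 176 serum-silenced genes met. Between the lines at 6 h 4 genes of the list were higher and 20 lower (limma), with a median of -0.53. This and the list counts that follow stand against 33.0% higher and 27.2% lower over all genes. Ccng2, a cyclin of arrested cells, was lower by -1.76 (SE 0.23, adjusted p = 2.87e-06, limma), and Sesn3, a sestrin that restrains mTORC1, by -1.26 (SE 0.14, adjusted p = 4.69e-07, limma), where Trp53inp1 had 0.00. Ypel2, at -0.53 (adjusted p = 0.236, limma), did not pass.

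Of the 50 measured mesenchymal and positional transcription factors, Snai2 and Mamstr were members. The other 4 serum-silenced genes of that list, Osr1, Osr2, Maf and Trp63, lay below -0.5 after 12 h of E2F1. Between the lines at 6 h 15 of the list were higher and 22 lower (limma). Osr1, an odd-skipped factor, was lower by -0.91 (adjusted p = 6.23e-05, limma), where Snai2 was higher by 0.55. Trp63, at 0.77 (adjusted p = 0.0534, limma), was on the other side of 0 and did not pass. Slc25a27 was the 1 member among 178 solute carriers (59 higher, 46 lower at 6 h) and Zfp608 among 356 zinc finger genes (74 higher, 152 lower).

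The other lists held no member. Gas1, Gas7 and Rgcc, the serum-silenced genes of the growth arrest list (7 higher and 13 lower of 23 at 6 h), lay below -0.5 after 12 h of E2F1, the untested value that 74.4% of the serum-silenced genes met. So did Pdgfra, a receptor for platelet-derived growth factor, in the growth factor receptor list (5 higher, 7 lower of 26), and so did Nr3c2, Per3, Dbp and Hlf in the nuclear receptor and clock list (6 higher, 7 lower of 24). Between the lines at 6 h, of these 4, Hlf was lower (-1.88, adjusted p = 0.00628, limma), while Nr3c2 (0.63, adjusted p = 0.197), Per3 (0.38, adjusted p = 0.162) and Dbp (-0.34, adjusted p = 0.466) did not pass. Of the BMP, TGF-beta and Wnt list 14 were higher and 14 lower of 42, of the G protein-coupled receptors 3 and 11 of 26, and of the complement and cytokine list 3 and 7 of 22. The Notch list had 4 higher and 4 lower of 10, axon guidance 9 and 12 of 37, ion channels 8 and 13 of 30, and secreted matrix proteins 12 and 12 of 42.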

How the data were processed

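The deposited main table holds 1 value for each gene and library, which its name calls normalized counts. Because the authors scaled these values and deposited them as whole numbers, their unit is taken as a score. The submitters' processing notes name FastQC, Trimmomatic, HISAT2, featureCounts and DESeq2 and the build mm10, with no roles or versions. The scaling, the strand setting and the annotation are not given in the sources used here. Further deposited tables hold the authors' log2 fold changes and adjusted p-values against 0 h.

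The log2 of each value + 1 entered limma 3.58.1 (R 4.3.3), which fitted a mean for each of 11 groups to all 22 libraries, with a mean-variance trend and Benjamini-Hochberg adjustment over all 11208 genes (threshold 0.05). The filter, a value of at least 10 in 2 libraries, removed no gene. The median over genes of the difference between replicates was at least 2.72 times counting noise in every group, and no libraries were identical. For members with few counts in serum, depth also limits the fold. A test on simulated data covered the comparison of the lines at 6 h (11208 genes). It called 65 of 100 genes changed 1.5-fold, 99 of 100 changed 2-fold and 9 unchanged genes. Every simulated gene had the same spread beyond counting noise, which the real genes do not. Members with a larger SE can be missed, such as Nrep at 2.12-fold (SE 0.66, adjusted p = 0.1607, limma).

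Members and lists were chosen with earlier results of these data known. The members named are the 8 with the highest EV 0 h mean, the 8 with the largest serum difference among those with an EV 0 h mean of at least 200, up to 6 called without overlap in each direction between the lines at 6 h or from 6 to 12 h in the EV line, up to 3 in each list, and those next to a bound. Promoters are from RefSeq and positions from GENCODE M21, in which all 41 identifiers occurred. Alternatives tried were quantile normalization, equal totals, a pseudocount of 8, no filter, only the groups compared, a replicate block and leaving out each library. Leaving out the 2 h libraries, the serum bound at 6 and 12 h only and the test of the difference between the lines in the change from 2 to 6 h were chosen after seeing the data. Python 3.11.15 with pandas 2.3.3, numpy 2.4.6 and matplotlib 3.10.9 made tables and figures.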

Additional observations from a re-analysis of the deposited data

Results flagged for a closer look

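The change from 2 to 6 h of doxycycline differed between the lines in 8 of the 41 members by a test of the difference itself (limma, adjusted over all genes, 35.7% of which passed). It was higher in the E2F1 line for Rab3d by 1.254 in log2 (SE 0.26, adjusted p = 0.0009184), for Cbx7 by 1.082 (SE 0.24, adjusted p = 0.001936) and for Pdp1 by 0.5845 (SE 0.19, adjusted p = 0.02425). It was lower for Lrrn3, at -1.278 (SE 0.37, adjusted p = 0.01215), Cercam, at -1.236 (SE 0.41, adjusted p = 0.02503), and Mamstr, at -1.206 (SE 0.46, adjusted p = 0.04761). Akr1c14 had -0.9367 (SE 0.33, adjusted p = 0.0344) and Pld1 had -0.9133 (SE 0.32, adjusted p = 0.03544).

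Mamstr read 275 and 213 in the EV line at 2 h and 432 and 383 at 6 h, while the E2F1 line read 491 and 412, then 241 and 443. Its EV libraries at 2 h were below those at 0 h (407 and 441). These results rest on 2 h libraries, in which Ddx3y stood between the lines, and the part of that was not tested. The count was 3 without replicate 1 of the E2F1 line at 6 h or either of its replicates at 2 h, 4 without EV 2 h replicate 1, 5 without E2F1 6 h replicate 2 or EV 6 h replicate 1, and 7 without replicate 2 of the EV line at 2 or 6 h.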

How the results depend on the processing

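The choice of members depends on scaling and on single libraries. The rule gave 25 genes after quantile normalization, 20 of them members, 61 after scaling to equal totals, 40 of them members, 76 with the serum bound at 6 and 12 h only, and 37 to 53 when 1 library was left out (53 without EV 0 h replicate 2). Only 10 members were chosen under every setting run. Quantile normalization moved the median of all genes between the lines at 6 h to -0.14, and there 3 members were higher and 14 lower, against 5 and 12. In fits to only the groups compared, the count was 14 between the lines at 2 h, 1 from 2 to 6 h in the EV line and 13 for the difference of changes. With 1 library left out (the lone one assumed to vary like other groups), counts were 14 to 17 between the lines at 6 h, 9 to 11 from 2 to 6 h in the E2F1 line, 0 to 1 between the lines at 2 h and 3 to 7 for the difference of changes. The cause was not tested. Of the 17 members called between the lines at 6 h, 14 passed under every alternative, and Rgl1 (adjusted p 0.0543 by limma after quantile normalization), Snai2 (0.0826) and Cercam did not. No direction reversed. The labels name no shared batch for replicate numbers. Deviations of same-numbered libraries correlated over 0.1 in 18 of 55 pairs of groups (-0.277 to 0.455), so the numbers were not taken to pair all libraries. Within each line every pair among the 0, 6 and 12 h groups without serum was over 0.1 (0.142 to 0.455), a hint from the data, and pairs of these with 2 h of doxycycline were below 0. A replicate block within each line gave 18 members between the lines at 6 h, with Rnf144a added (adjusted p = 0.0272, limma), and moved the calls over all genes from 6 to 12 h in the EV line from 5 to 14.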
